A study of Homo sapiens with 6 samples.

Results

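The APOBEC3 genes encode a family of cytidine deaminases, and all 7 members named in human, APOBEC3A, APOBEC3B, APOBEC3C, APOBEC3D, APOBEC3F, APOBEC3G and APOBEC3H, were followed here by gene symbol. They were 7 of the 63677 genes in the data, and 32 of the 215170 transcripts carried one of their symbols. Each symbol had 1 Ensembl gene identifier except APOBEC3A, whose second identifier (ENSG00000262156) was listed at 0 in all 6 libraries. The members were picked by name and no measured value entered the rule, though earlier results of these data were known.

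Total RNA of KMS27, an established human myeloma cell line and thus a model of malignant plasma cells, was sequenced in 6 libraries. The labels put 3 libraries in a wild type group and 3 in a group with overexpression of HA-TAZ, the transcriptional coactivator TAZ (gene WWTR1) carrying a short HA peptide tag. All 6 come from the same line, without any further treatment named. RNA was treated with DNase and depleted of ribosomal RNA before stranded libraries were made and read from both ends. The vector, its promoter, and whether the cells were 1 clone or a pool are not given in the sources used here. The control columns of the data carry a name found in no label and were taken as wild type because no other group is left; they are called control a, b and c. Titles in the wild type group include the letters HA, which no label explains. The labels do not say whether the 3 libraries of a group came from separate cultures, so the p-values measure only the spread between these libraries, which may be technical.

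APOBEC3 enzymes remove the amino group of cytosine in single-stranded DNA and leave uracil. They restrict retroviruses and mobile elements: packaged or encountered by the virus, they deaminate its reverse-transcribed DNA or block its copying. A zinc ion held by a histidine and a pair of cysteines, with a glutamate beside it, forms the catalytic site. Some members have 1 such domain and others have a second, mostly inactive one. APOBEC3A and APOBEC3B can also reach the cell's own DNA and leave a known mutation pattern in tumour genomes, myeloma included.

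The members arose by duplication, and their sequences show how alike the measured RNAs are. Below are the coding stretches from the motif histidine to its last cysteine, 5′ to 3′, on the plus strand of chromosome 22 and read from GENCODE release 29 (GRCh38). They are shown because reads within an identical stretch cannot be given to 1 gene by sequence alone. Capitals mark the codons of the histidine, the glutamate and the 2 cysteines.
APOBEC3A, codons 70 to 106, and identical to it APOBEC3B motif 2, codons 253 to 289: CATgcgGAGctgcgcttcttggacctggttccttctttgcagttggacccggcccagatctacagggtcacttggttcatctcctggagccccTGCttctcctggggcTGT
APOBEC3B motif 1, codons 66 to 100, and identical to it APOBEC3F motif 1, codons 65 to 99: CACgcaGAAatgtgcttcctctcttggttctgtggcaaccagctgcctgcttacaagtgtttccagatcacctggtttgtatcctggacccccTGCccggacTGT
APOBEC3D motif 2, codons 262 to 296, and identical to it APOBEC3F motif 2, codons 249 to 283: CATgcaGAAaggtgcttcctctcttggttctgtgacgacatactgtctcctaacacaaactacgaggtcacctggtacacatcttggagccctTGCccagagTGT
APOBEC3C, codons 66 to 100: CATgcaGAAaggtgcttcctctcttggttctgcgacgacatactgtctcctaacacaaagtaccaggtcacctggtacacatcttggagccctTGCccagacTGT
APOBEC3G motif 2, codons 257 to 291: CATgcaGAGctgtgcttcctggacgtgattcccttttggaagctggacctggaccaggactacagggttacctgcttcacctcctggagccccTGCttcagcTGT
APOBEC3H, codons 54 to 88: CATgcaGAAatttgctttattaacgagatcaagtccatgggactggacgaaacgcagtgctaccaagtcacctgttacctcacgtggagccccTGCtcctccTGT
APOBEC3A, APOBEC3C and APOBEC3H held 1 motif, and APOBEC3B, APOBEC3D, APOBEC3F and APOBEC3G held 2. The APOBEC3C stretch had 4 mismatches to the one shared by APOBEC3D and APOBEC3F (96.2% identity). APOBEC3G motif 2 was 77.5% identical to the APOBEC3A stretch. The APOBEC3H stretch was 59.5% identical to that of APOBEC3A and 60.4% to that of APOBEC3C, and the stretches of APOBEC3A and APOBEC3C were 57.1% identical to each other. Identity was counted over aligned columns, gaps included.

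Over whole transcripts, likeness was counted in words of 31 bases on either strand. APOBEC3B shared the largest part of its words with other members, 47.7%, followed by APOBEC3F (30.2%), APOBEC3A (28.7%) and APOBEC3D (22.6%). APOBEC3G shared 9.41%, APOBEC3C 6.29% and APOBEC3H none. APOBEC3A and APOBEC3B had 576 words in common, which is 26.2% of the words of APOBEC3A and 29.6% of those of APOBEC3B. APOBEC3F and APOBEC3G had 424 in common (13.0% and 7.73% of each), and APOBEC3D and APOBEC3F 347 (13.6% and 10.6%). For APOBEC3D, 89.3% of the words also occurred in genes outside the family, mostly in a read-through gene that GENCODE names AL022318.4. Its transcript is filed under APOBEC3D in the deposited tables, where it was at 0. Levels of APOBEC3A, APOBEC3B, APOBEC3D and APOBEC3F therefore rest on how the quantifier divided shared reads and are uncertain to that degree, while APOBEC3C and APOBEC3H are the least exposed. The same holds for single transcripts of APOBEC3G: its most abundant, ENST00000463934.1, shared 31.7% of its words with other members, and the coding ENST00000407997.3 shared 25.7%. Release 29 held 28 of the 32 deposited member transcripts under a member gene, 14 of them in the same version.

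**Figure D1:**
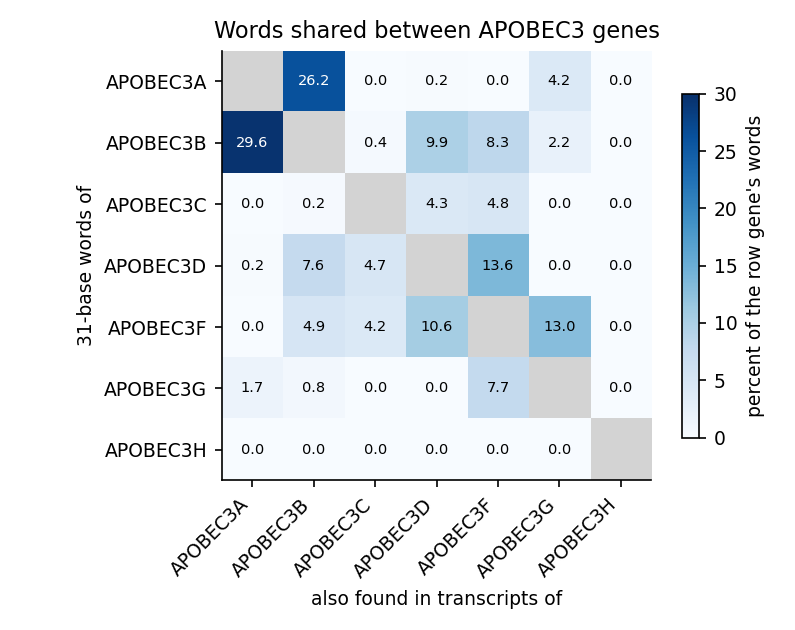
Share of each gene's words of 31 bases that also occur in another member, in percent, with the gene in rows and the other member in columns. APOBEC3A and APOBEC3B share 26.2% and 29.6% of their words, and APOBEC3H shares none with any member.

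Of the 7, RefSeq's promoter table (GRCh38.p14) held the window of APOBEC3H, 300 bases from 250 before the start. It was searched on both strands for the interferon-stimulated response element (GAAA, any 2 bases, GAAA), the cell cycle homology region TTTGAA, and the kappa B element. None of these letters was found in this window. Of 35116 promoter windows of the same length, 3.57% held the first, 15.2% the second and 11.3% the kappa B element.

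The libraries carried the labels' difference: WWTR1 stood at 293 to 306 TPM in the HA-TAZ libraries and at 1.69 to 2.69 TPM in the controls. TPM is an abundance per transcript length, relative to a library's total, and carries no read depth. All 10 plasma cell markers had a mean of at least 1 TPM, with summed levels of 2804 to 3234 TPM in HA-TAZ and 4299 to 4853 TPM in control libraries. T and NK cell markers, of interest because such cells are rich in APOBEC3G, summed to 4.13 to 5.26 TPM against 6.14 to 6.23 TPM. Of these 7 markers, CD3D, CD3E, CD2 and NKG7 had a mean below 1 TPM. The other 3, CD3G, GNLY and KLRD1, had a mean of at least 1 TPM. Monocyte markers, of interest for APOBEC3A, summed to 1.74 to 1.93 TPM against 1.91 to 2.25 TPM, with S100A8 and S100A9 at 0 throughout. Of these 7, 1 (CSF1R) had a mean of at least 1 TPM. Stromal markers summed to 3.54 to 4.31 TPM against 3.85 to 5.18 TPM, and 2 of 6 (COL1A1 and DCN) had a mean of at least 1 TPM. For the comparison of groups, TPM was divided by a factor for each library (0.866 to 0.967 in HA-TAZ, 1.06 to 1.21 in controls), and these values are called scaled TPM. This scaling matters for every difference below: the median log2 difference of all tested genes was -0.025 after it and -0.27 on the TPM as deposited.

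APOBEC3C was the most abundant member, at a mean of 12.8 TPM over the 6 libraries, followed by APOBEC3B at 6.30, APOBEC3G at 2.64, APOBEC3F at 1.35, APOBEC3D at 0.722, APOBEC3A at 0.383 and APOBEC3H at 0.156 TPM. APOBEC3C and APOBEC3B together made up most of the family's RNA, with 52.1% and 26.2% of its TPM on average. The ranges of the libraries were apart between neighbours in this order, except for APOBEC3F and APOBEC3D, which overlapped (5 of 6 libraries kept the order), and APOBEC3A and APOBEC3H, which overlapped in range although all 6 libraries kept the order. Set among 19376 protein-coding genes, APOBEC3C lay at the 68.8 percent point, APOBEC3B at 57.8, APOBEC3G at 48.4, APOBEC3F at 42.4 and APOBEC3H at 24.96. In these bulk libraries, fewer expressing cells and less RNA per cell cannot be told apart.

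**Figure D2:**
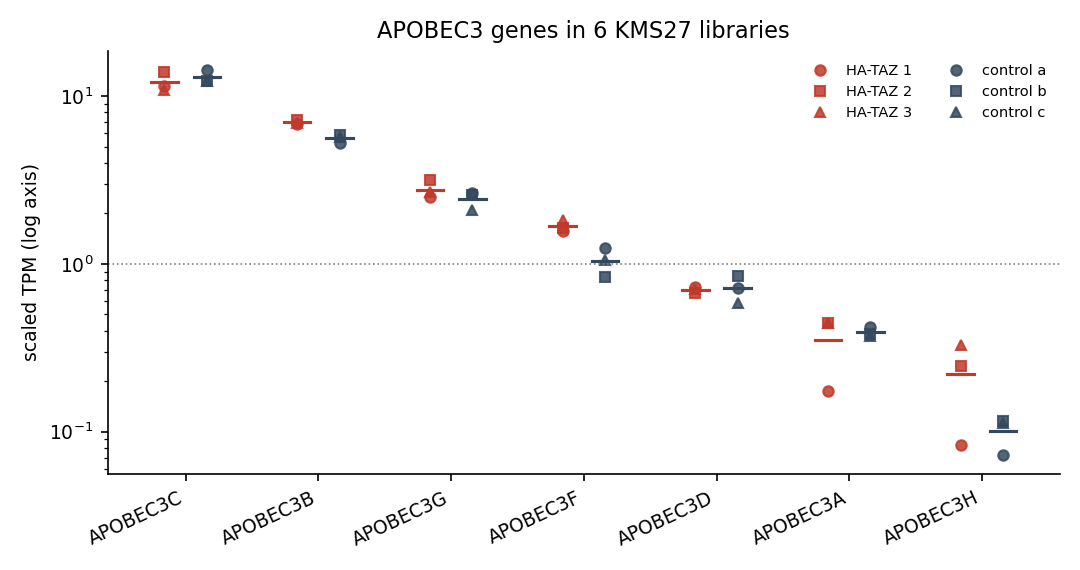
Scaled TPM of each member in the 6 libraries, with each group's mean as a bar, on a log axis, and a dotted line at 1 scaled TPM. The order from APOBEC3C down to APOBEC3H is seen in both groups, and the HA-TAZ points of APOBEC3B and APOBEC3F lie above all 3 control points.

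APOBEC3B and APOBEC3F were higher in all 3 HA-TAZ libraries than in any control on scaled TPM, but no member passed the test. Of the 7 members, 4 had a mean of at least 1 TPM and could be tested with limma on log2(scaled TPM + 1), and 0 of those 4 had an adjusted p under 0.05. Of all 22651 genes tested, 7.29% passed, 4.67% as higher in HA-TAZ. At an unadjusted p under 0.05 stood 2 of the 4, against 30.7% of all tested genes, and 20.2% of all tested genes were higher in HA-TAZ without overlap. The median log2 difference of the 4 tested members was 0.20.

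APOBEC3B, a nuclear enzyme with 2 domains that deaminates genomic DNA, measured 6.86, 7.25 and 6.88 scaled TPM in the HA-TAZ libraries and 5.25, 5.86 and 5.68 in the controls. The groups did not overlap. The means were 6.996 ± 0.222 and 5.60 ± 0.315 scaled TPM (SD, n = 3 each), a ratio of 1.25. The log2 difference was 0.28 (SE 0.07, 95% interval 0.10 to 0.46), with an adjusted p of 0.0699 by limma. On the TPM as deposited the groups overlapped, at 6.36 ± 0.575 and 6.25 ± 0.213 TPM, and the log2 difference was 0.019.

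APOBEC3F, a 2-domain antiviral enzyme of the cytoplasm, measured 1.58, 1.64 and 1.84 scaled TPM in HA-TAZ and 1.25, 0.838 and 1.05 in the controls. These groups did not overlap either, and the means of 1.69 ± 0.135 and 1.05 ± 0.204 scaled TPM stood in a ratio of 1.61. The log2 difference was 0.40 (SE 0.12, 95% interval 0.10 to 0.69) with an adjusted p of 0.0924 by limma. With protein-coding genes alone in the fit the adjusted p was 0.0468 by limma, just under the threshold, with a smaller log2 difference of 0.35. That fit called 2746 genes, against 1652 in the main fit. As deposited, the groups overlapped and the log2 difference was 0.22. With a pseudocount of 0.1 in place of 1 it was 0.65 (adjusted p 0.108 by limma).

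APOBEC3C, a single-domain enzyme, measured 11.5, 14.0 and 10.8 scaled TPM in HA-TAZ and 14.3, 12.3 and 12.3 in the controls. The groups overlapped, with HA-TAZ 2 among the controls. The log2 difference was -0.097 (SE 0.11, 95% interval -0.37 to 0.18; adjusted p 0.595 by limma) on scaled TPM and -0.38 as deposited.

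APOBEC3G, the best-known restriction factor of HIV and a target of the viral Vif protein, measured 2.50, 3.15 and 2.67 scaled TPM in HA-TAZ and 2.65, 2.59 and 2.10 in the controls. The groups overlapped. Its log2 difference was 0.13 (SE 0.12, 95% interval -0.16 to 0.42) with an adjusted p of 0.491 by limma, and it turned to -0.086 on the TPM as deposited.

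The other 3 members were below the level needed for the test. APOBEC3D, a close relative of APOBEC3F, ranged from 0.670 to 0.732 scaled TPM in HA-TAZ and from 0.584 to 0.852 in the controls. APOBEC3A, the single-domain enzyme of highest activity in the family, ranged from 0.174 to 0.446 and from 0.371 to 0.423, its lowest value being that of HA-TAZ 1. APOBEC3H, known for its stable and unstable inherited forms, ranged from 0.0833 to 0.330 and from 0.0729 to 0.115 scaled TPM. The groups of all 3 overlapped, with exact permutation p-values of 0.9, 1.0 and 0.3 (two-sided, n = 3 each, smallest possible 0.1).

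The summed level of the family did not separate the groups. It was 24.8 ± 2.21 scaled TPM in HA-TAZ and 23.3 ± 1.29 in controls (exact permutation p = 0.4, n = 3 each), and as deposited 22.6 ± 3.37 and 26.1 ± 3.35 TPM, with the direction turned (exact permutation p = 0.3, n = 3 each). Each member's share of that sum does not depend on scaling between libraries. APOBEC3C made up 49.0%, 51.0% and 45.8% of the sum in HA-TAZ and 58.0%, 53.5% and 55.4% in controls, lower without overlap. APOBEC3B made up 29.3%, 26.5% and 29.003% against 21.3%, 25.6% and 25.6%, and APOBEC3F 6.75%, 6.01% and 7.75% against 5.04%, 3.66% and 4.76%, both higher without overlap. Each of these differences had the smallest exact permutation p that 3 against 3 libraries allow, 0.1. The shares of the other 4 overlapped between groups, with APOBEC3G at 11.2% ± 0.428 and 10.5% ± 0.947. Shares of 1 sum are tied to each other, so these are not separate results. How often such shares differ in other gene families was not counted, so no support is drawn from them.

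Transcripts showed which RNA forms carried the values. Of the members' transcripts, 27 of 32 were above 0 in any library, and 6 could be tested; 0 of these 6 passed by limma, against 0.564% of 57448 tested transcripts, and 2 of the 6 had an unadjusted p under 0.05, against 24.3% of all tested transcripts. In the authors' deposited table, 15 member transcripts had a q-value and 0 of them were under 0.05, against 5.68% of 109487 transcripts.

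One of those with an unadjusted p under 0.05 was the main protein-coding transcript of APOBEC3B, ENST00000333467.3. It measured 3.75, 4.22 and 4.27 scaled TPM in HA-TAZ and 2.19, 3.55 and 3.01 in controls, without overlap. The log2 difference was 0.39 (SE 0.15, adjusted p 0.186 by limma). As deposited the groups overlapped, at 3.74 ± 0.422 and 3.26 ± 0.642 TPM. The other protein-coding transcripts of the gene, ENST00000407298.3 and ENST00000402182.3, overlapped between groups, with log2 differences of 0.14 and 0.089.

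The other was the protein-coding transcript of APOBEC3C, ENST00000361441.4. It measured 7.61, 7.73 and 8.12 scaled TPM in HA-TAZ and 6.77, 6.89 and 5.93 in controls, without overlap. The log2 difference was 0.23 (SE 0.09, adjusted p 0.185 by limma), opposite in sign to that of the gene's sum. As deposited the groups overlapped, at 7.16 ± 0.457 and 7.38 ± 0.943 TPM, and the direction was that of the gene's sum. In the authors' deposited table it was higher in HA-TAZ, by 0.20 as a natural log value, with a q-value of 0.0953. Its partner ENST00000428892.1, annotated as a target of nonsense-mediated decay, a pathway that degrades RNA with a premature stop, measured 3.72, 6.07 and 2.70 scaled TPM against 7.57, 5.202 and 6.21. These overlapped, and the log2 difference was -0.55 (SE 0.26, adjusted p 0.251 by limma). That transcript made up 32.9%, 44.0% and 24.9% of the APOBEC3C TPM in HA-TAZ and 52.8%, 43.0% and 51.2% in controls (exact permutation p = 0.2, n = 3 each). As deposited it measured 3.87 ± 1.84 and 7.18 ± 1.76 TPM, so that both forms of APOBEC3C had the lower mean in HA-TAZ, while on scaled TPM only this one had.

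Most APOBEC3G RNA was assigned to transcripts that retain an intron and are not annotated as coding. Together these 4 transcripts made up 63.8%, 69.2% and 61.9% of the gene's TPM in HA-TAZ and 85.9%, 96.0% and 78.8% in controls. The shares did not overlap, at 65.0% ± 3.78 and 86.9% ± 8.62 (SD, n = 3 each, exact permutation p = 0.1, the smallest possible). No other share by annotated transcript type separated the groups in any member. How often such shares separate over all genes was not counted, so no support is drawn from the APOBEC3G share. The summed level of these 4 transcripts overlapped, at 1.79 ± 0.318 and 2.12 ± 0.431 scaled TPM (exact permutation p = 0.3). The most abundant of them, ENST00000463934.1, took 42.7% ± 7.04 and 67.4% ± 8.87, and its own level overlapped (log2 difference -0.28, adjusted p 0.363 by limma). The annotated coding transcript ENST00000407997.3 took 20.2%, 2.08% and 7.79% in HA-TAZ and 0%, 3.61% and 0% in controls, with overlap. These shares rest on few reads. In the authors' deposited table, back-transformed means put ENST00000463934.1 at about 81.8 estimated counts, ENST00000452957.2 at about 23.4 and ENST00000407997.3 at about 5.49. ENST00000481958.1 stood at about 3.01. Of the coding transcripts of APOBEC3F, ENST00000308521.5 measured 0.576, 0.883 and 0.788 scaled TPM against 0.518, 0.516 and 0.472, without overlap. As deposited its groups overlapped. It was below the level for the test, and in the authors' deposited table its q-value was 0.129. The other coding transcript, ENST00000381565.2, held 42.8% of the gene's TPM in HA-TAZ and 40.1% in controls on average. It measured 0.874, 0.543 and 0.712 scaled TPM against 0.618, 0.195 and 0.492, with overlap. In the authors' deposited table its q-value was 0.557, at about 15.1 estimated counts.

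**Figure D3:**
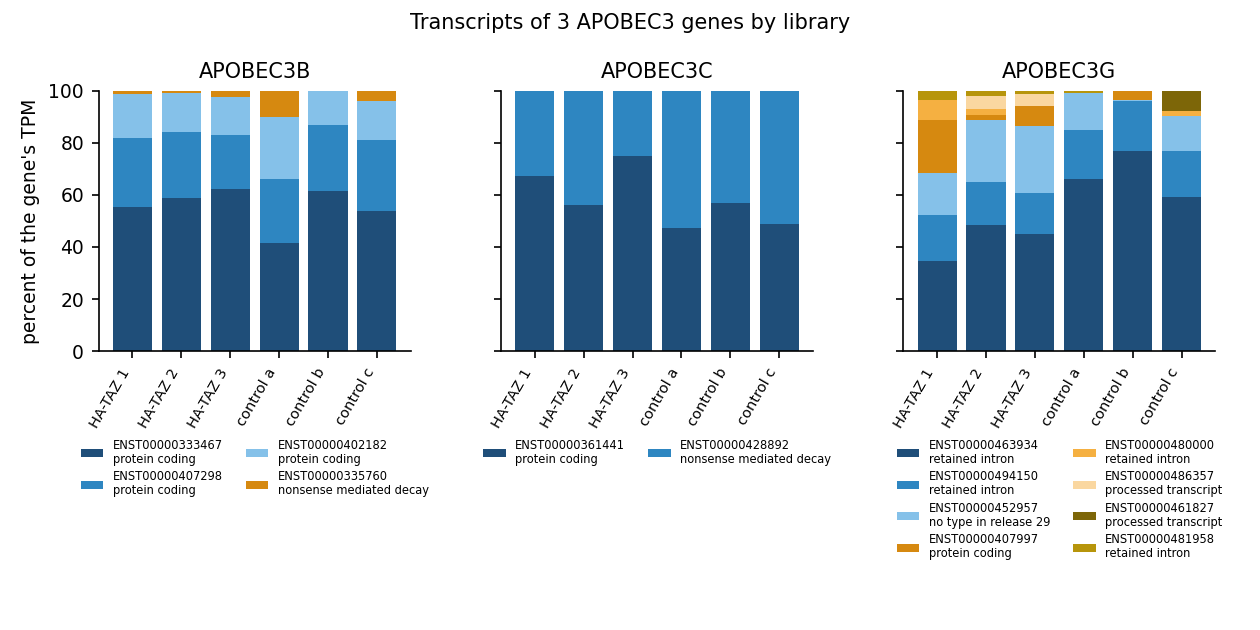
Stacked bars of the percent of the TPM of APOBEC3B, APOBEC3C and APOBEC3G held by each transcript in each of the 6 libraries, with the transcript's type in the key. The 4 retained-intron transcripts of APOBEC3G together hold 61.9% to 69.2% in HA-TAZ and 78.8% to 96.0% in control libraries.

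APOBEC3B-AS1, which lies antisense to APOBEC3B and is no member of the family, was chosen after its values were seen because it overlaps APOBEC3B. Its values were identical under 2 gene identifiers, ENSG00000249310 and ENSG00000262679, so reads were not told apart between them. Under each it measured 4.29, 4.92 and 4.95 scaled TPM in HA-TAZ and 6.91, 7.40 and 7.33 in controls, without overlap. It fell by 0.52 on the log2 scale (95% interval -0.72 to -0.32, adjusted p 0.0295 by limma), and in the authors' deposited table its transcript had a q-value of 0.0169. As a transcript it did not pass by limma (adjusted p 0.0671). The call was lost when any 1 of the 6 libraries was left out, with adjusted p from 0.0665 to 0.0960 by limma. Of the words of APOBEC3B, 9.66% also occur in the antisense gene, and use of strand by the quantifier is not given in the sources used here, so their reads cannot be fully told apart.

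The 7 genes lie side by side on chromosome 22, between CBX6 and CBX7 in the RefSeq order. Of the 11 neighbouring genes listed, 8 could be tested and 1 passed. TOMM22, an import receptor of the outer mitochondrial membrane, rose by 0.32 on the log2 scale (adjusted p 0.0182 by limma). This call held without control a and was lost without any other library (adjusted p up to 0.0847). The other tested neighbours had log2 differences of 0.44 for CBX6 (adjusted p 0.0509 by limma), a chromatin reader of the Polycomb complex, 0.32 for the ribosomal protein gene RPL3, 0.26 for JOSD1, 0.21 for SUN2, 0.17 for DNAL4, 0.017 for GTPBP1 and 0.013 for CBX7. The median of the 8 was 0.23, beside 0.20 for the 4 tested members. As deposited, none of the neighbours passed and their median was -0.029.

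**Figure D4:**
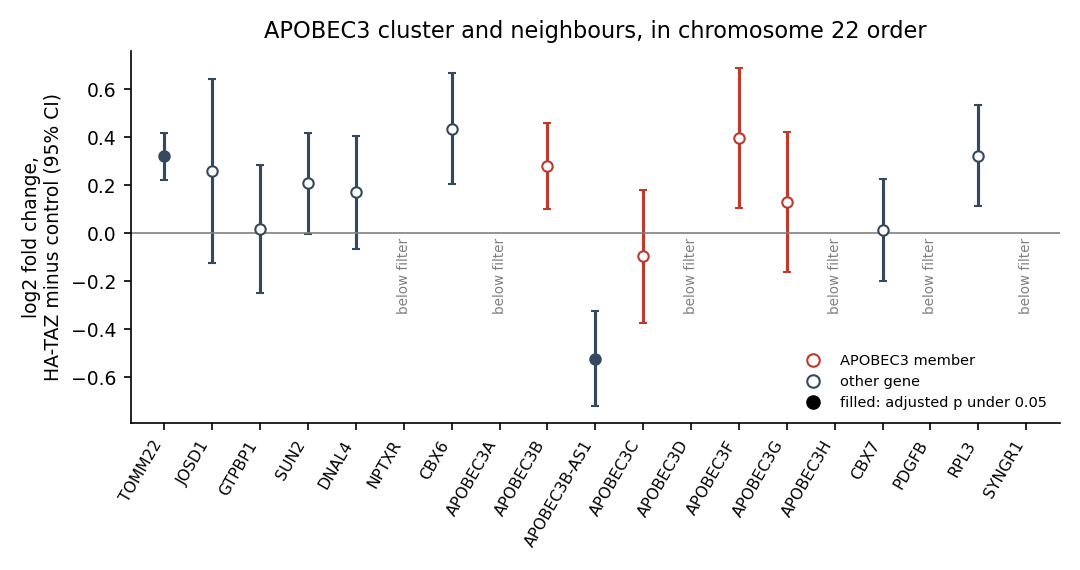
Log2 difference, HA-TAZ minus control, of the genes in their order along chromosome 22, with 95% intervals, where the level allowed the test. APOBEC3B and APOBEC3F lie at 0.28 and 0.40, APOBEC3C at -0.097 and the antisense gene APOBEC3B-AS1 at -0.52.

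Among regulators that the literature ties to APOBEC3 transcription, 9 of 20 rose, 0 fell and 11 did not pass, with a median log2 difference of 0.31. Of all tested genes, 4.67% passed as higher in HA-TAZ. The list was chosen with earlier results of these data known, so its count is a description and cannot show that such regulators rose more often. IRF1, an interferon-induced transcription factor, rose by 1.02 (SE 0.06, adjusted p 0.00243 by limma), from 22.9 ± 0.744 to 47.5 ± 2.70 scaled TPM. RELB and NFKB2, partners in the noncanonical NF-kappa B pathway through which APOBEC3B is known to be induced, rose by 1.18 and 0.63 (adjusted p 0.0106 and 0.0250). IRF9, the DNA-binding part of the interferon-stimulated complex ISGF3, rose by 0.91 (adjusted p 0.0138). MYBL2, a cell cycle factor of the MuvB complex, rose by 0.43 (adjusted p 0.0295), and REL by 0.49 (adjusted p 0.0307). As deposited, 4 of the 20 passed as higher and 2 as lower, and E2F4, one of the 9, had the other sign (-0.0064). IRF1 passed in every fit that left out 1 library, RELB in all but the fit without HA-TAZ 1 (adjusted p 0.0589), and IRF9 in those that left out a control (adjusted p up to 0.0697 otherwise). NFKB2 passed only without control a, with an adjusted p of up to 0.0993 otherwise, while MYBL2 and REL passed in none (adjusted p 0.0513 to 0.112).

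Of 9 other deaminases, 4 could be tested and 1 passed: ADAR, which edits adenosine in double-stranded RNA and is interferon-inducible, rose by 0.33 (adjusted p 0.0128 by limma), from 118 ± 0.772 to 149 ± 2.32 scaled TPM. The call was kept without control a or control c and lost without any other library (adjusted p up to 0.0675). DCTD, a deaminase of free deoxycytidylate, had a log2 difference of 0.24, ADARB1 of -0.13 and APOBEC2 of -0.090, none of which passed. APOBEC1, which edits the messenger RNA of apolipoprotein B, was listed at 0. The median was 0.076. As deposited, none of the 4 passed and the median was -0.16, with ADAR at 0.030 (adjusted p 0.750 by limma) and DCTD at -0.052.

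Of 21 genes that remove uracil or repair the sites it leaves, 1 rose, 2 fell and 18 did not pass, with a median of 0.11. All 3 belong to translesion synthesis past abasic sites: MAD2L2 rose by 0.57 (adjusted p 0.0416 by limma), while REV3L fell by 0.34 and REV1 fell by 0.30 (adjusted p 0.0472 and 0.0485). UNG, the main uracil glycosylase, had a log2 difference of 0.19 that did not pass. MAD2L2 kept its call only without control c (adjusted p up to 0.133 otherwise), and REV1 and REV3L in no fit that left out a library (adjusted p 0.0712 to 0.151). As deposited, 0 of the 21 passed as higher and 3 as lower.

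Of 15 other host restriction factors, 13 could be tested, 2 rose and 0 fell, with a median of 0.015. ISG20, an interferon-induced exonuclease, rose by 0.69 (adjusted p 0.0144 by limma), and MX1, an interferon-induced GTPase, by 0.32 (adjusted p 0.0498). ISG20 kept its call without HA-TAZ 1, control a or control c (adjusted p up to 0.0645 otherwise), and MX1 in none of these fits (adjusted p 0.0657 to 0.140). As deposited, neither ISG20 nor MX1 passed. Among the genes that did not pass, TRIM22 had a log2 difference of -0.58 (adjusted p 0.135 by limma). It was lower in HA-TAZ without overlap, also as deposited. MX2 had a log2 difference of -0.23 (adjusted p 0.297 by limma). At an unadjusted p under 0.05 by limma, 4 of the 13 were higher and 1, TRIM22, was lower. Of all tested genes, 30.7% had such a p in either direction. Across the 5 lists, 16 of 66 tested genes passed, against 7.29% of all tested genes, and 8 of those 16 lost the call whichever library was left out. All 5 lists were chosen with earlier results of these data known, so no support is drawn from this count.

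**Figure D5:**
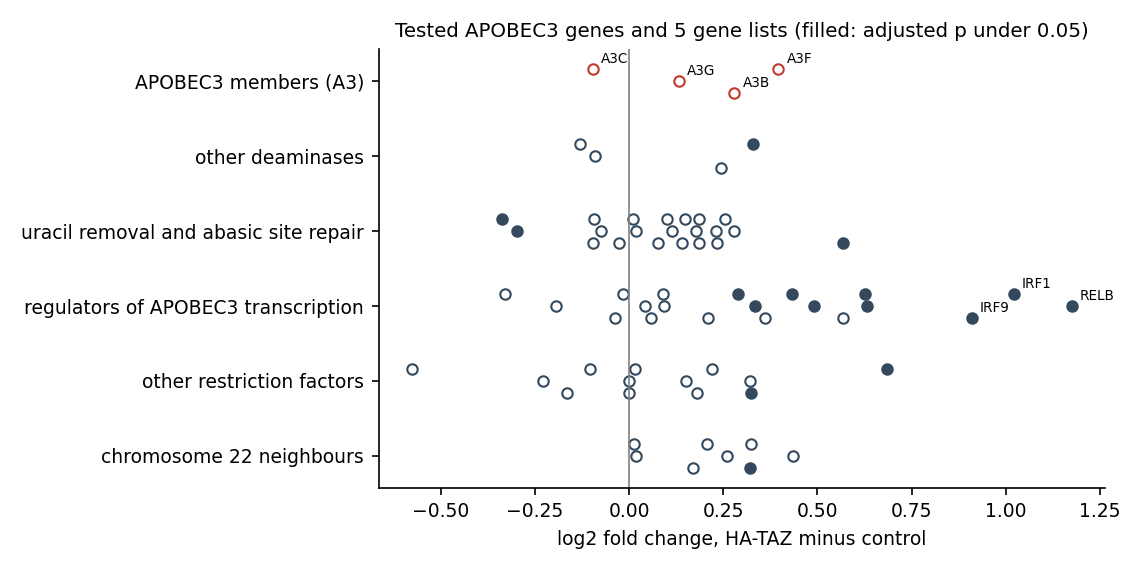
Log2 difference, HA-TAZ minus control, of each tested gene in the 5 lists and the tested members, with filled points for those with an adjusted p under 0.05. Of the regulators, 9 of 20 passed, all higher, while 0 of 4 members passed. Of all tested genes 7.29% passed, and the lists were chosen with earlier results of these data known.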

How the data were processed

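Per the file headers, the authors deposited TPM per transcript for 6 libraries of KMS27 cells, each column summing to 1000000. The authors' deposited table of a sleuth Wald test gives p-values and q-values, with effects and means as natural log values; its variance columns, numbers treated as a score with no fixed range, are the authors' and were not used. Per the submitters' processing notes, kallisto 0.46.0, sleuth 0.30.0, FastQC, MultiQC and the build GRCh37 were used, with no role stated; the annotation release is not given in the sources used here. Read depth per library is unknown.

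TPM was summed per gene identifier, divided by median-of-ratios factors over 21512 genes, and log2(scaled TPM + 1) was fitted with limma 3.58.1 with trend (R 4.3.3) for genes with a mean of at least 1 TPM, two-sided, with Benjamini-Hochberg adjustment over all 22651 and a threshold of 0.05. A log2 difference on this scale understates changes of low genes. Single values had exact permutation tests. The fit was tested on simulated data. The members and gene lists were chosen with earlier results of these data known. Named genes are the members, list genes past the threshold (up to 6 by adjusted p), and the tested other deaminases and neighbours in full; genes most like a called member were to be named, but no member was called. APOBEC1, UNG, E2F4, TRIM22, MX2 and APOBEC3B-AS1 were named outside this rule, after their values were seen. Transcripts were tested likewise with factors of their own. Sequence motifs, planned on RefSeq proteins, were located in GENCODE coding sequence. Coordinates are not printed because the annotation used here has another build.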

Additional observations from a re-analysis of the deposited data

How the results depend on the processing

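No member passed the threshold in the main analysis, and in the alternatives 1 did: APOBEC3F in the fit of protein-coding genes only, with a log2 difference of 0.35 (adjusted p 0.0468 by limma). The 1652 called genes became 3329 with TPM as deposited, 691 with no filter on level, 758 without trend, 2746 with protein-coding genes only, and 118 to 470 when 1 library was left out. With TPM as deposited, APOBEC3G turned to -0.086, APOBEC3D moved to -0.14 and the family's summed log2 ratio turned from 0.09 to -0.21. With a pseudocount of 0.1, APOBEC3A moved from -0.05 to -0.18, APOBEC3H from 0.14 to 0.60 and APOBEC3F from 0.40 to 0.65 (adjusted p 0.108 by limma). Leaving out each library in turn, log2 differences ranged from 0.24 to 0.31 for APOBEC3B, 0.32 to 0.46 for APOBEC3F, -0.19 to -0.02 for APOBEC3C, 0.06 to 0.19 for APOBEC3G, -0.10 to 0.06 for APOBEC3A, -0.07 to 0.04 for APOBEC3D, 0.08 to 0.24 for APOBEC3H and 0.02 to 0.14 for the summed level. Summing APOBEC3A with APOBEC3B gave 0.26 (adjusted p 0.0808 by limma). At a mean of at least 5 TPM only APOBEC3B and APOBEC3C gave values. What lies behind these moves was not tested. No paired analysis was possible because no label ties the numbers of the control columns to the numbered wild type samples. The depth of single libraries is unknown, and 3 libraries a group limit the precision.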
